A study of Mus musculus with 16 samples.

Results

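The phase II conjugation enzymes described here are the genes of the count table whose mouse symbol begins with Ugt, Sult or Gst followed by the subfamily number or letter, that is the UDP-glucuronosyltransferases, the sulfotransferases and the glutathione S-transferases. Of the 21965 genes in the table, 65 were members by this rule: 22 in the Ugt family, 21 in the Sult family and 22 in the Gst family. The rule used names and no measured value. RNA-seq was performed on a segment of about 1.5 cm from the terminal ileum of 16 male mice, with 1 library per mouse. The WT PF group (n = 4) and the WT EtOH group (n = 3) were wild-type mice. The fat-1 PF group (n = 4) and the fat-1 EtOH group (n = 5), whose genotype is labelled Fat1+/-, were littermates heterozygous for a transgene that encodes the n3 fatty acid desaturase FAT-1 of C. elegans in all tissues. The label does not refer to the mouse gene Fat1, and reads of the transgene were not analysed here. All mice were on a C57BL/6 background, were 8 to 10 weeks old at the start and were fed a Lieber-DeCarli liquid diet for 6 weeks. EtOH in the diet was raised in steps to 6% (v/v) for the last 3 weeks, while pair-fed (PF) mice received the same calories with maltose dextrin in place of EtOH. The 4 groups allow the response of these enzymes to EtOH to be compared within each genotype, and the genotypes to be compared within each diet.

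Phase II enzymes attach a polar group to a hormone, bile acid, dietary compound or drug, so that the product is more soluble and can be carried out of the cell. Ugt enzymes sit in the endoplasmic reticulum and use UDP-glucuronic acid, most Sult enzymes are cytosolic and use PAPS as sulfate donor, and Gst enzymes use glutathione. Enterocytes carry all 3 families, which places conjugation at the first surface that absorbed compounds meet.

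Several members are near copies of each other or share exons, and this bears on how reads could be assigned. The Ugt1a genes lie on chromosome 1 between 88055388 and 88220002 (GRCm38, plus strand). Each has its own exon 1, which encodes the part that binds the substrate, and all use the same exons 2 to 5. In the 9 Ugt1a members, 849 to 870 coding bases came from exon 1 and the same 735 coding bases from the shared exons. The join of exon 1 to exon 2 is shown for the 3 members that passed the filter on low counts, with exon 1 in lower case and the shared exon 2, which begins at 88215044, in capitals (GENCODE M21).
Ugt1a1: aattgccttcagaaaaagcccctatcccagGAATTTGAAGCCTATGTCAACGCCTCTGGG
Ugt1a6a: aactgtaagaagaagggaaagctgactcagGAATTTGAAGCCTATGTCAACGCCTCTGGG
Ugt1a7c: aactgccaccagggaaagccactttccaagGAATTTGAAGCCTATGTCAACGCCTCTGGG
Of all stretches of 75 bases, the read length, in the transcripts of these 3 genes, 57.7% in Ugt1a1, 51.2% in Ugt1a6a and 52.5% in Ugt1a7c also occurred in another gene. How the counting treated such reads is not stated, so the Ugt1a values are uncertain as values of single genes.

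The Gstp pair on chromosome 19 (Gstp1 from 4035407 to 4037985 and Gstp2 from 4040285 to 4046023, minus strand) differed at 12 of 630 coding bases, an identity of 98.1%. Of these differences, 6 lay in the first 90 coding bases, which are shown with the differing bases in capitals.
Gstp1: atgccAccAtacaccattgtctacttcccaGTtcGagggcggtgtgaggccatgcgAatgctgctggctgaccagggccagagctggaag
Gstp2: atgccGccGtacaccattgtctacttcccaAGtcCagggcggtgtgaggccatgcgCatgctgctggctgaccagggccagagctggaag
Shared stretches of 75 bases made up 29.2% of Gstp1 and 50.1% of Gstp2. The largest such share among the tested Gst genes was that of Gsta1, 84.7%, with Gsta2 and 2 other annotated genes, so that its reads may in part belong to these. Gstm3 shared 21.6% of its stretches, Ugt2b5 30.4% and Gstm1 11.7%. In contrast, Ugt2a3, Ugt2b34 and Gstm6 shared 1.81%, 0.858% and 2.59%, and Gsto1, Sult1b1, Sult2b1 and Sult6b2 shared none.

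Between 8422645 and 11438539 reads were counted per library. Levels in single mice are CPM, the count per 1000000 counts of the TMM-adjusted library. DEGs are genes whose p in edgeR's quasi-likelihood test, adjusted by Benjamini-Hochberg over 13811 genes, was 0.05 or less. Each SE given is the size of the log2 fold change divided by the square root of that test's F statistic. It restates the test and is no separate estimate of the spread between mice. Libraries were numbered by diet, 1 to 8 for PF and 9 to 16 for EtOH, and an effect of this order cannot be told apart from that of the diet. The 5 marker genes of ileal bile acid handling summed to between 2373 and 8049 CPM in 12 libraries. Only 461 and 404 CPM were found for fat-1 PF replicates 2 and 4. Those of fat-1 EtOH replicates 3 and 4 were 913 and 1866 CPM. The 7 large intestine markers summed to between 326 and 1268 CPM in 13 libraries, whereas fat-1 EtOH replicates 3 and 4 had 12360 and 13330 CPM, and WT EtOH replicate 2 had 5217 CPM. The 8 proximal small intestine markers were highest in fat-1 PF replicates 2 and 4, at 58840 and 57430 CPM, lay between 3602 and 18650 CPM in the other PF mice and between 254 and 1753 CPM in EtOH-fed mice. The 4 smooth muscle markers summed to between 748 and 1162 CPM in PF and between 1471 and 3165 CPM in EtOH-fed mice. The 5 epithelial markers summed to 7149, 7083 and 9338 CPM in fat-1 EtOH replicates 3, 4 and 5, and to between 11670 and 15190 CPM in the other libraries. The 4 B cell markers summed to 365 CPM in fat-1 EtOH replicate 5 and to at most 73.2 CPM elsewhere. The part of these differences in the lower values of the enzymes was not tested. No gene of these lists was at 0 in all libraries, and the 4 hepatocyte markers summed to no more than 6.97 CPM. The 4 pancreas acinar markers summed to between 5.04 and 15.75 CPM in 13 libraries, to 30.1 CPM in WT PF replicate 3, and to 51.3 and 43.5 CPM in fat-1 EtOH replicates 3 and 4. The 3 adipocyte markers summed to between 70.4 and 321 CPM, highest in fat-1 EtOH replicate 5, and the 3 red blood cell markers to between 5.00 and 35.1 CPM. Results are therefore given with and without the 3 EtOH libraries high in large intestine markers and fat-1 PF replicates 2 and 4. Leaving out fat-1 EtOH replicate 5 ended the calls of Gstt2 and Gstt3 between fat-1 EtOH and fat-1 PF mice described below and no other call of a member, and added none, with 37.2% of all genes then called in that comparison.

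Of the 65 members, 50 had a count in at least 1 library and 35 passed the filter on low counts: 9 Ugt, 7 Sult and 19 Gst genes. No count was found for 15 members, among them all 8 Sult2a genes (hydroxysteroid sulfotransferases known from liver), Sult3a1, Sult3a2, Sult6b1, Ugt1a10, Ugt2a2, Ugt2b37 and Ugt3a1. A further 15 members had counts but did not pass, with group means of at most 0.736 CPM (Gsto2 in fat-1 EtOH mice). Per kilobase of exon not shared with another gene, the highest mean level over the 16 libraries in each family was that of Gsto1 (201.6 CPM per kb), an omega-class enzyme that reduces disulfides and dehydroascorbate, Ugt2b34 (155 CPM per kb), a UGT2B enzyme of the group that conjugates steroids and bile acids, and Sult1b1 (136 CPM per kb), which sulfates phenols and thyroid hormones. The second highest in each family were Gstp1 at 40.4, Ugt1a1 at 63.6 and Sult1d1 at 109.6 CPM per kb. Ugt1a1 is the bilirubin-conjugating enzyme, and Sult1d1 acts on catecholamines. In WT PF mice these 6 levels were 201 ± 32.1 for Gsto1, 174.5 ± 36.3 for Ugt2b34, 167 ± 39.0 for Sult1b1, 105 ± 16.2 for Sult1d1, 57.2 ± 13.6 for Ugt1a1 and 43.1 ± 6.27 CPM per kb for Gstp1 (SD, n = 4). The SDs of the first 3 overlapped. Within single mice, Gsto1 lay above Sult1b1 in all 4, while the place of Ugt2b34 changed from mouse to mouse. On the EtOH diet Sult1d1 lay above Sult1b1, with mean levels of 100.4 for Sult1d1 and 76.5 CPM per kb for Sult1b1 in WT mice, and of 115 and 65.9 CPM per kb in fat-1 mice. Most of the gap in fat-1 EtOH mice came from replicates 3 and 4, with 4840 and 4993 counts of Sult1d1 against 1562 and 1835 of Sult1b1. Replicates 1, 2 and 5 had 2045, 2696 and 1770 counts of Sult1d1 against 2052, 2915 and 2124 of Sult1b1. In fat-1 EtOH mice Sult1a1 was the highest Sult gene at 117 CPM per kb, which came from replicates 3 and 4 as given below.

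**Figure D1:**
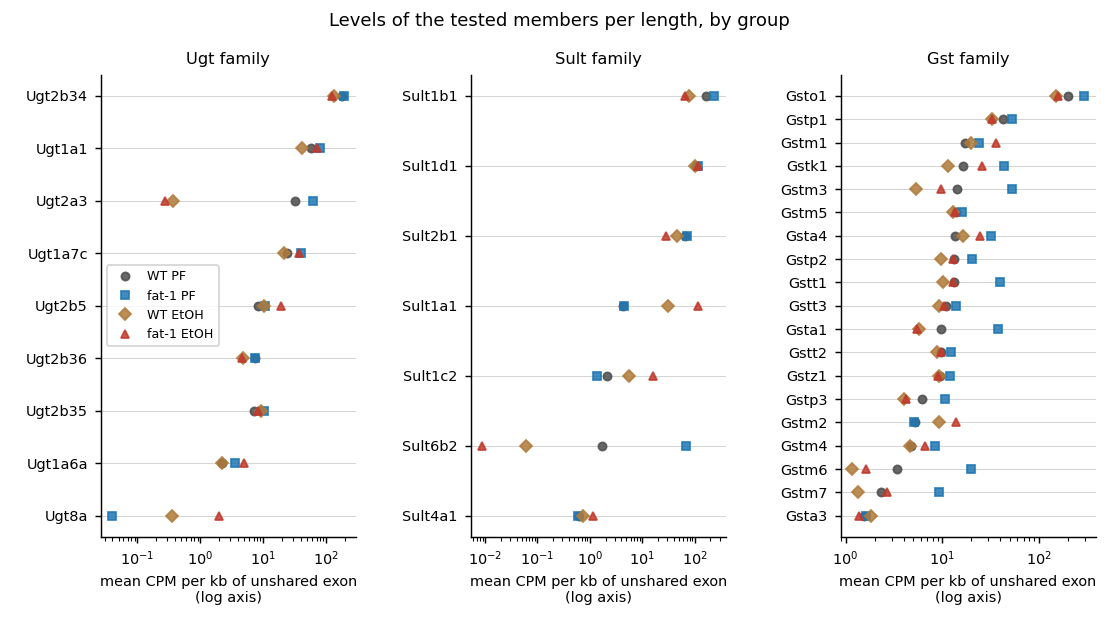
Mean CPM per kb of unshared exon in each of the 4 groups, on a log axis, for the 35 members tested, by family. Levels ran from under 1 to above 200 CPM per kb, Ugt2a3 and Sult6b2 were lowest in the 2 EtOH groups, and Ugt8a in WT PF mice, which is listed at 0, has no point.

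Each family was carried by few genes. In WT PF mice, Ugt2b34 and Ugt2a3 held 84.0% of the summed Ugt CPM, Sult1b1 and Sult2b1 72.5% of the summed Sult CPM, and Gsto1 and Gstp1 60.2% of the summed Gst CPM. In EtOH-fed mice of both genotypes, Ugt1a7c took the place of Ugt2a3 and Sult1d1 that of Sult2b1 among these pairs, while Gstm1 took the place of Gstp1 in fat-1 EtOH mice. In WT EtOH mice the place of Ugt1a7c rested on replicate 2, since without it Ugt1a1 averaged 37.9 and Ugt1a7c 36.5 CPM. That of Gstm1 rested on the fat-1 EtOH replicates 3 and 4, since Gstm1 averaged 53.4 and Gstp1 50.5 CPM in all 5 of these mice and 26.0 and 46.9 CPM in the other 3. On the PF diet the summed Ugt CPM was 978 ± 211 for WT and 1187 ± 381 for fat-1 mice. With EtOH it was 726 ± 66.9 and 758 ± 214. In the same order (WT PF, fat-1 PF, WT EtOH, fat-1 EtOH) the Sult sum was 1001 ± 163, 1380 ± 238, 698 ± 174 and 789 ± 287 CPM. The Gst sum was 787 ± 120, 1284 ± 412, 633 ± 51.6 and 738 ± 217 CPM (SD, n as above). The highest sum of each family was that of fat-1 PF replicate 2, at 1743 CPM for Ugt, 1642 CPM for Sult and 1753 CPM for Gst genes.

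Between EtOH-fed and PF fat-1 mice, 21 of the 35 tested members were DEGs: 17 were lower and 4 higher in fat-1 EtOH mice. The background was 37.4% of all genes tested, 18.8% lower and 18.7% higher. The largest decreases were those of Sult6b2, Ugt2a3, Gstm6 and Gsta1. By family, 2 Ugt genes were lower and 1 higher, 3 Sult genes lower and 2 higher, and 12 Gst genes lower and 1 higher, while 6 Ugt, 2 Sult and 6 Gst genes did not pass. The median log2 fold change was -0.394 over the 35 members and 0.054 over all genes tested. In 10 members every fat-1 EtOH mouse lay below every fat-1 PF mouse, which held for 13.4% of all genes, and in no member did every mouse lie above (10.6%). Tissue was sampled whole, so that fewer cells with an enzyme and less RNA per cell cannot be told apart.

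Ugt2a3 (chromosome 5, 87324972 to 87337195), a glucuronosyltransferase that acts on bile acids, had 63.3, 248, 81.0 and 132 CPM in the 4 fat-1 PF mice and 0.380, 1.79, 0, 0.0892 and 0.599 CPM in the 5 fat-1 EtOH mice. It was at or near 0 in every fat-1 EtOH mouse and in no fat-1 PF mouse. This was a log2 fold change of -7.80 (SE 0.78, adjusted p = 0.000165 in edgeR's test). Ugt2b34 (chromosome 5, bases 86889767 to 86906937) stood at 800, 1122, 667 and 726 CPM in fat-1 PF and 465, 656, 568, 566 and 399 CPM in fat-1 EtOH mice. The groups did not overlap, but the highest fat-1 EtOH mouse lay only just under the lowest fat-1 PF mouse. The log2 fold change of Ugt2b34 was -0.64 (SE 0.19, adjusted p = 0.0155). Both genes lie in the Ugt2 cluster on chromosome 5, whose other tested members Ugt2b35, Ugt2b36 and Ugt2b5 had log2 fold changes of -0.32, -0.67 and 0.82 and did not pass.

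Sult6b2 (chromosome 6 from 142785204 to 142804502) showed the largest fitted change. In fat-1 PF mice it had 65.8, 169, 0.410 and 356 CPM, and in fat-1 EtOH mice it had 0.0950 CPM in replicate 1 and 0 in the other 4. The fat-1 PF mice thus spread from 3 counts in replicate 3 to 2901 counts in replicate 4, and fat-1 EtOH mice held 1 count in all. The ratio of counts scaled by library size was 8473, with an exact 95% interval of 1520 to 334700 that covers counting error only. Without fat-1 PF replicate 4 the ratio was 4393 (787.5 to 173600). The adjusted p was 0.000466. Of 26 alternatives, only limma voom ended this call. Sult1b1 (chromosome 5, bases 87513339 to 87538195) stood at 471, 851, 591 and 699 CPM in fat-1 PF and 195, 248, 128, 164 and 182 CPM in fat-1 EtOH mice. Every fat-1 EtOH mouse was far under every fat-1 PF mouse, with a log2 fold change of -1.83 (SE 0.22, adjusted p = 0.000219). Sult2b1 (chromosome 7 from 45729983 to 45784669), which sulfates cholesterol and other hydroxysteroids, had 256, 301, 334 and 262 CPM in fat-1 PF and 187, 186, 26.6, 29.9 and 138 CPM in fat-1 EtOH mice. The fat-1 EtOH replicates 3 and 4, the libraries highest in large intestine markers, were far under the other 3. Sult2b1 fell by 1.34 on the log2 scale (SE 0.46, adjusted p = 0.0349) and had a log2 fold change of -0.73 (SE 0.14, adjusted p = 0.00394) without the 3 EtOH libraries high in these markers. The call of Sult2b1 was lost in 7 of 27 alternatives, among them leaving out fat-1 PF replicate 2, 3 or 4 singly. Sult1d1, the neighbour of Sult1b1, had 314, 308, 318 and 179 CPM in fat-1 PF and 194, 229, 397, 445 and 151 CPM in fat-1 EtOH mice. The groups overlapped and the log2 fold change was 0.02 (SE 0.30, adjusted p = 0.966). This value of Sult1d1 rested on fat-1 EtOH replicates 3 and 4, its highest libraries. It was -0.52 (SE 0.22, adjusted p = 0.0905) without the 3 EtOH libraries high in large intestine markers, and -0.71 (SE 0.20, adjusted p = 0.0419) when fat-1 PF replicates 2 and 4 were left out too, so that Sult1d1 was then a DEG. With limma voom it was -0.22 (adjusted p = 0.599).

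The promoters of Ugt2a3 and Sult6b2, the members with the largest decreases, and that of Ugt1a1 are shown from RefSeq (GRCm38.p6), since regulators that bind such motifs were measured in the same libraries. Among the 250 bases before the start of each gene, 5 motifs were searched on both strands: HNF1 (10 letters, in capitals as matched in the Ugt1a1 promoter, with any base allowed at the first C), CDX (TTTATNG), HNF4 (CAAAGTCCA), the antioxidant response element (TGACNNNGC) and the GATA motif with the letters AGATAA, none of which overlapped another in the promoters shown. Matches are in capitals. Ugt2a3 lies at chr5:87337196-87337445, Sult6b2, cut to the 214 bases outside the annotated gene, at chr6:142804503-142804716 (both minus strand) and Ugt1a1 at chr1:88211709-88211958 (plus strand).
Ugt2a3: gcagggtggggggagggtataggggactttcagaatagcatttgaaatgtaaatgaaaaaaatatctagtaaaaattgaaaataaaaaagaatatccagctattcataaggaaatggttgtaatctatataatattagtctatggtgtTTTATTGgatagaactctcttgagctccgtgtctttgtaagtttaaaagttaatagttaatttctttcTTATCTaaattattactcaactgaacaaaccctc
Sult6b2: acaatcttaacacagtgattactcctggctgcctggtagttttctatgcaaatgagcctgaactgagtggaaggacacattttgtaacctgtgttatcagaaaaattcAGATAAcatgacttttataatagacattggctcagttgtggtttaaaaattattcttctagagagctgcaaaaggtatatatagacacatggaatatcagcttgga
Ugt1a1: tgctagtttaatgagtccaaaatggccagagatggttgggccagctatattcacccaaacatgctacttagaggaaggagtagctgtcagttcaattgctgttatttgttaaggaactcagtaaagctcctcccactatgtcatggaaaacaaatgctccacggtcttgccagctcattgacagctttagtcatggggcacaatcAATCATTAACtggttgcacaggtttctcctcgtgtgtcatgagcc
The capitals are a CDX match at -102 to -96 and a GATA match at -34 to -29 in Ugt2a3, a GATA match at -142 to -137 in Sult6b2 and an HNF1 match at -45 to -36 in Ugt1a1, counted from the RefSeq start. A promoter was matched by symbol for 57 of the 65 members. The GATA letters occurred in 11 of these and in 9.99% of 32851 promoters, the CDX letters in 5 and in 9.81%, and the antioxidant response element in 2 and in 10.2%. The HNF1 letters occurred in 8 members, of which 4 are Sult2a and 3 Ugt1a paralogs, and in 0.37% of all promoters. The HNF4 letters occurred in no member and in 0.38%. These matches describe the letters only.

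Among the Gst genes, Gsta1 (chromosome 9 from 78230656 to 78242684), an alpha-class enzyme that conjugates products of lipid peroxidation, had 28.8, 51.8, 9.29 and 55.6 CPM in fat-1 PF and 2.95, 5.36, 8.86, 5.17 and 4.02 CPM in fat-1 EtOH mice. The highest fat-1 EtOH mouse lay just under fat-1 PF replicate 3. Gsta1 fell by 2.78 on the log2 scale (SE 0.47, adjusted p = 0.000804). Gstm6 (chromosome 3 from 107938847 to 107943749), of the mu class, had 14.8, 80.3, 7.38 and 57.7 CPM in fat-1 PF and 2.19, 2.21, 4.51, 5.80 and 1.37 CPM in fat-1 EtOH mice. Most of the fat-1 PF mean came from replicates 2 and 4. Gstm6 fell by 3.63 on the log2 scale (SE 0.64, adjusted p = 0.000986).

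Gsto1 (chromosome 19, bases 47854970 to 47864790) stood at 472, 725, 474 and 713 CPM in fat-1 PF and 285, 313, 348, 412 and 241 CPM in fat-1 EtOH mice, a log2 fold change of -0.90 (SE 0.18, adjusted p = 0.00183). Gstp1, a pi-class enzyme, had 73.7, 95.5, 73.3 and 87.1 CPM in fat-1 PF and 49.8, 52.7, 58.9, 53.1 and 38.2 CPM in fat-1 EtOH mice, a log2 fold change of -0.70 (SE 0.13, adjusted p = 0.00116). The groups of both genes were clear of each other. Gstp3 (chromosome 19 from 4057477 to 4059569), the neighbour of Gstp1 and Gstp2, fell by 1.35 on the log2 scale (SE 0.33, adjusted p = 0.00638). It had 7.42, 13.3, 6.70 and 11.7 CPM in fat-1 PF and 3.61, 4.93, 1.72, 2.86 and 5.99 CPM in fat-1 EtOH mice. The 7 other Gst genes that were lower had groups that overlapped. Their log2 fold changes were -2.45 for Gstm3, -1.81 for Gstm7, -1.63 for Gstt1, -0.65 for Gstp2, -0.40 for Gstz1 (maleylacetoacetate isomerase of tyrosine breakdown), -0.39 for Gstt3 and -0.34 for Gstt2. The last 3 calls held least: of 27 alternatives, 19 ended that of Gstt3, 14 that of Gstz1 and 12 that of Gstt2, among them 12, 8 and 6 of the 16 in which 1 mouse was left out. The call of Gstp2 was lost in 6 alternatives, that of Gstm3 in 3, and those of Gstm7 and Gstt1 in 1 each. In the Gstm cluster on chromosome 3, between 107895821 and 108044894, Gstm3, Gstm6 and Gstm7 were thus lower, Gstm2 was higher, and Gstm1, Gstm4 and Gstm5 did not pass, at log2 fold changes of 0.59, -0.35 and -0.27.

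**Figure D2:**
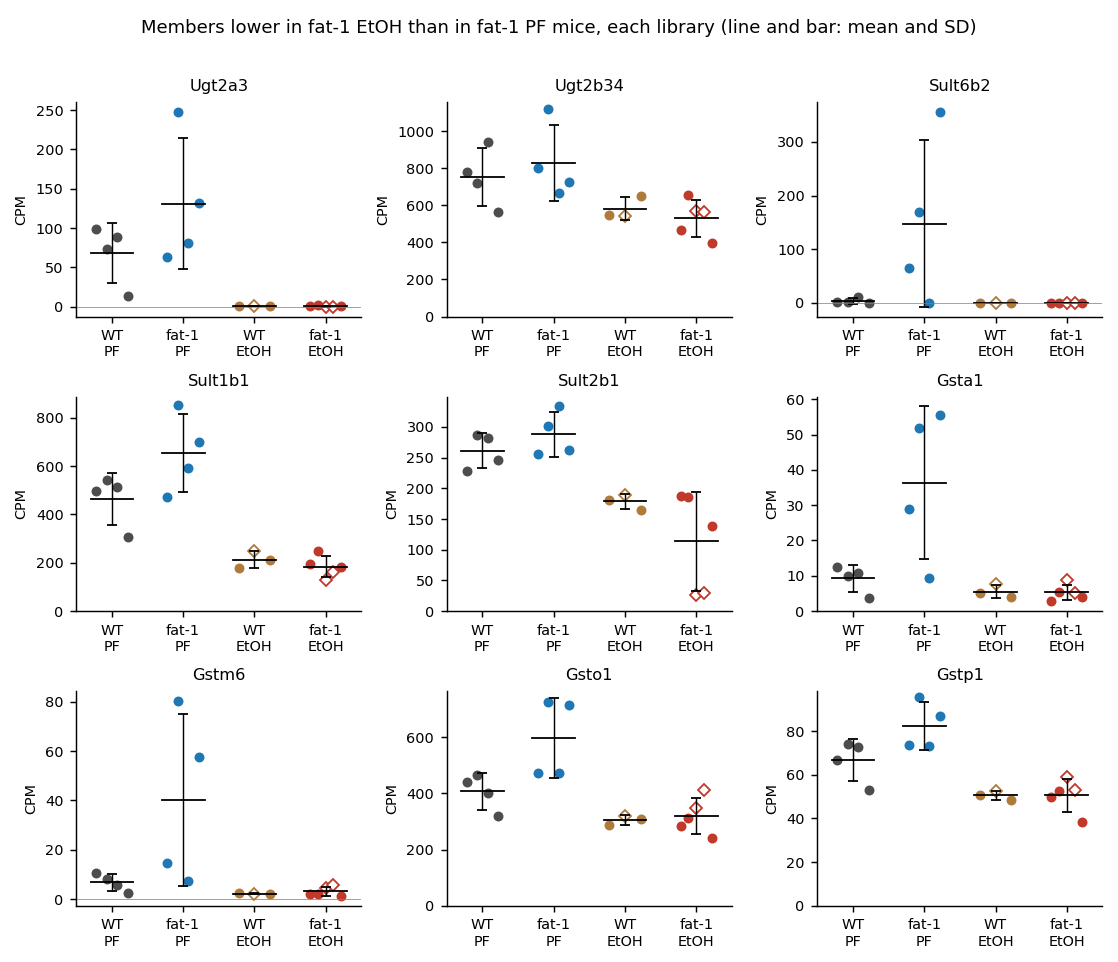
CPM in each of the 16 libraries for 9 members that were lower in fat-1 EtOH than in fat-1 PF mice; lines and bars are the mean and SD of each group, and open diamonds mark the 3 EtOH libraries high in large intestine markers. Ugt2a3 and Sult6b2 were at or near 0 in both EtOH groups. Ugt2a3, Sult6b2, Sult1b1, Gsta1, Gstm6, Gsto1 and Gstp1 had their highest values in fat-1 PF replicates 2 and 4.

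The 4 members that were higher in fat-1 EtOH mice were Ugt8a, Sult1a1, Sult1c2 and Gstm2. They are named after their values were seen, since their groups overlapped. Ugt8a, which adds galactose to ceramide rather than glucuronic acid to a drug, had 0.212, 0.140, 0 and 0.368 CPM in fat-1 PF and 0.285, 0.425, 20.01, 24.2 and 0.0855 CPM in fat-1 EtOH mice. The counts rested on replicates 3 and 4, with 244 and 271 counts against 9 in the other 3. Sult1a1 (chromosome 7 from 126672865 to 126676432), the main phenol sulfotransferase, had 4.35, 9.54, 7.79 and 5.03 CPM in fat-1 PF and 7.22, 10.4, 377, 468 and 17.9 CPM in fat-1 EtOH mice. Replicate 2 of the WT EtOH mice had 122 CPM, and replicates 1 and 3 had 8.77 and 8.15 CPM. Sult1c2 (chromosome 17, bases 53829637 to 53846339) stood at 2.33, 2.39, 4.24 and 1.10 CPM in fat-1 PF and 5.61, 9.18, 67.9, 60.6 and 4.11 CPM in fat-1 EtOH mice. Gstm2 had 8.90, 11.1, 7.52 and 6.63 CPM in fat-1 PF and 12.3, 10.1, 37.3, 42.9 and 14.03 CPM in fat-1 EtOH mice.

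The fat-1 EtOH replicates 3 and 4, high in all 4 of these genes, were the libraries with 12360 and 13330 CPM of large intestine markers, and WT EtOH replicate 2 with 5217 CPM was the highest WT mouse in each. The log2 fold changes were 5.50 (SE 1.94, adjusted p = 0.0440) for Ugt8a, 4.73 (SE 1.36, adjusted p = 0.0151) for Sult1a1, 3.56 (SE 0.83, adjusted p = 0.00518) for Sult1c2 and 1.45 (SE 0.42, adjusted p = 0.0146) for Gstm2. Without the 3 libraries they were 0.86 (SE 0.34, adjusted p = 0.0710) for Sult1a1, 1.36 (SE 0.36, adjusted p = 0.0156) for Sult1c2 and 0.53 (SE 0.23, adjusted p = 0.0907) for Gstm2, and Ugt8a did not pass the filter. Only the call of Sult1c2 was thus kept among these 4. It was lost, at an adjusted p of 0.0996, when fat-1 PF replicates 2 and 4 were left out too.

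**Figure D3:**
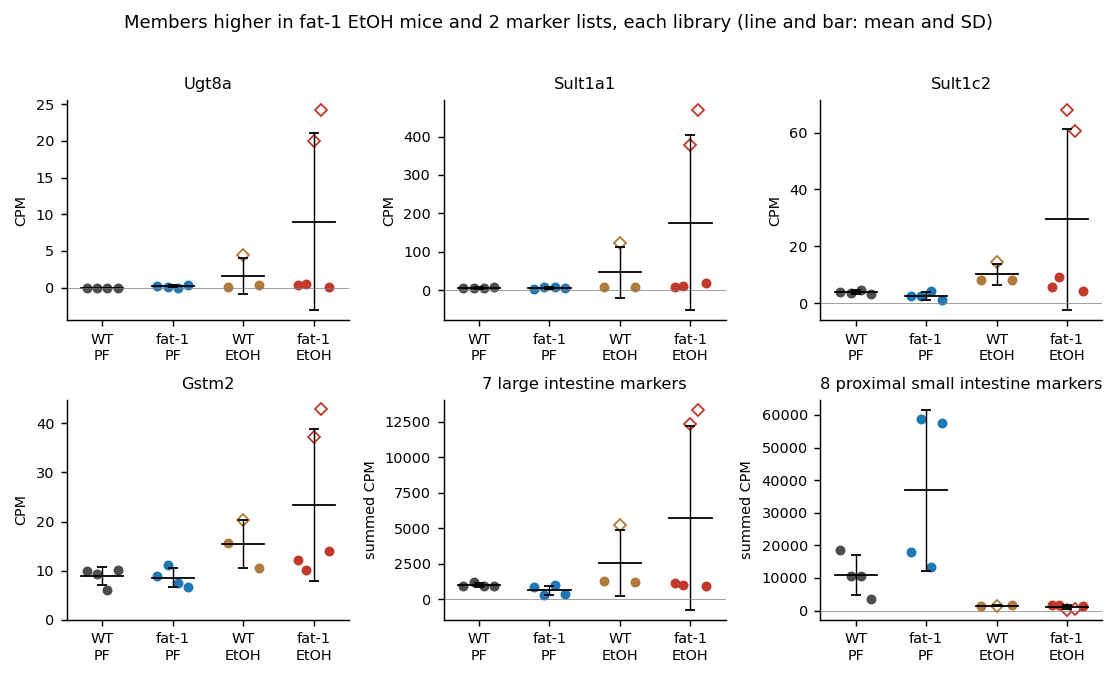
CPM of the 4 members that were higher in fat-1 EtOH mice and the summed CPM of 2 marker lists in each of the 16 libraries, with the mean and SD of each group. The open diamonds, fat-1 EtOH replicates 3 and 4 and WT EtOH replicate 2, are the highest of their group in all 4 genes and in the large intestine list; the proximal small intestine list is highest in fat-1 PF replicates 2 and 4.

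The lower members held up differently. Without the 3 libraries, 23 of 34 tested members were DEGs, 22 of them lower, against 29.7% of all genes (15.8% lower). The 17 calls shared with the full set of libraries were Sult1c2 and 16 of the 17 lower members, all but Gstz1. Gstz1 averaged 61.4 CPM in fat-1 PF mice and 46.5 CPM in fat-1 EtOH mice, or 45.4 CPM without the 3 libraries. Its mean thus hardly moved although the call was lost. Ugt1a1, Ugt1a7c, Gstk1, Gsta4, Gstm4 and Gstm5 were lower in addition. For Ugt1a1, for example, fat-1 PF mice had 51.2, 134, 37.3 and 65.1 CPM, fat-1 EtOH replicates 1, 2 and 5 had 28.7, 39.0 and 25.1 CPM, and replicates 3 and 4 had 116 and 113 CPM. Its log2 fold change moved from -0.16 (SE 0.47, adjusted p = 0.810) to -1.18 (SE 0.37, adjusted p = 0.0360). That of Ugt1a7c moved from -0.13 to -1.26 (adjusted p = 0.0117), and that of Gstk1, a mitochondrial and peroxisomal enzyme, from -0.74 to -2.27 (adjusted p = 0.00329). With upper-quartile scaling of all 16 libraries, the signs of Ugt1a1 and Ugt1a7c turned to positive and the median of all genes moved by 0.149, and no DEG among the members changed sign.

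Without fat-1 PF replicates 2 and 4, the libraries high in proximal small intestine markers, 6 of 36 tested members were DEGs, against 13.9% of all genes. These were Ugt2a3 (log2 fold change -6.94, adjusted p = 0.00284), Sult1b1 (-1.53, adjusted p = 0.00656), Sult6b2 (-10.1, adjusted p = 0.0102), Gsta1 (-1.85, adjusted p = 0.0285), Gstp1 (-0.54, adjusted p = 0.0344) and Gstm6 (-1.79, adjusted p = 0.0404), all lower. With all 5 libraries left out, 13 of 34 tested members were DEGs, all of them lower, against 11.9% of all genes, and 11 of these were DEGs with all libraries. The part of these marker differences in the changes was not tested.

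**Figure D4:**
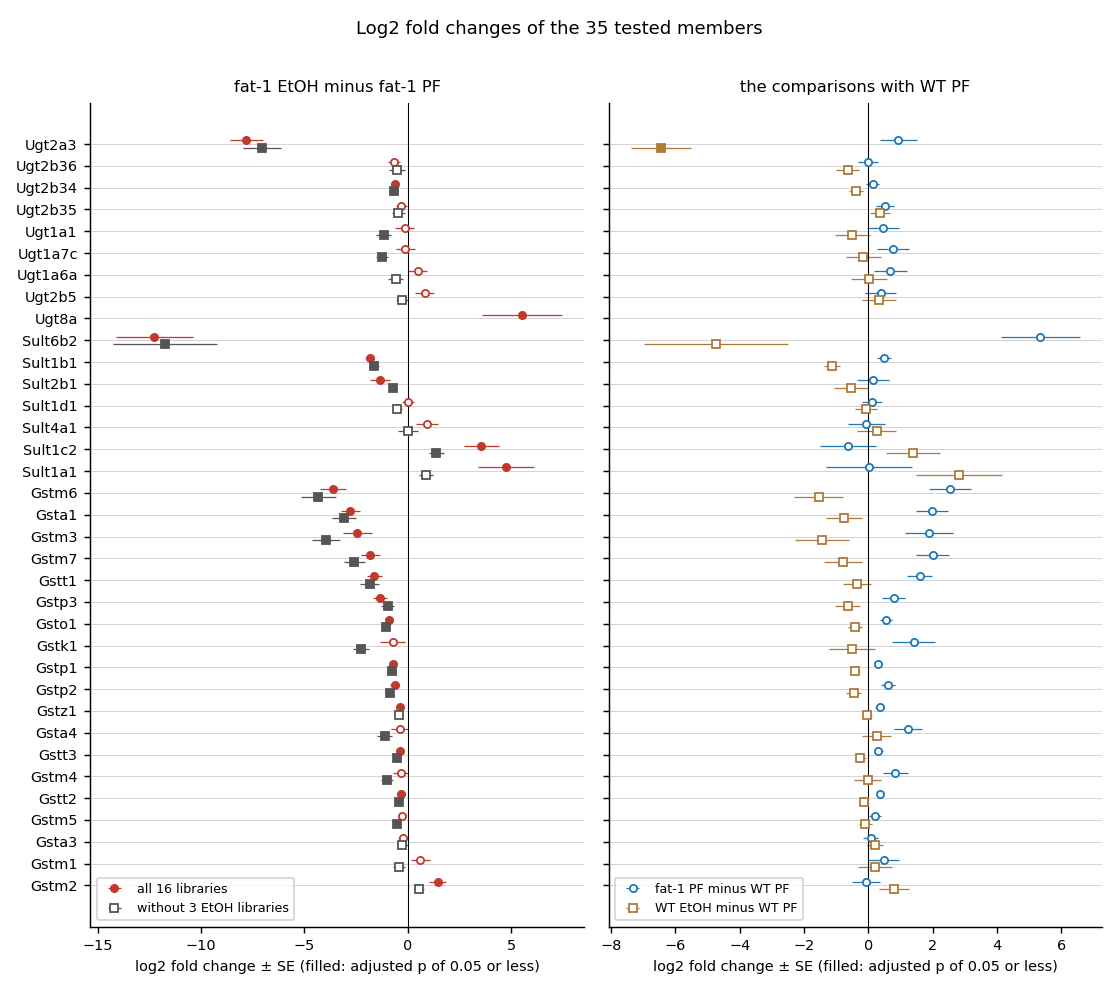
Log2 fold changes with their SE for the 35 tested members, ordered by family: on the left fat-1 EtOH minus fat-1 PF with all 16 libraries (circles) and without the 3 EtOH libraries high in large intestine markers (squares), on the right fat-1 PF minus WT PF and WT EtOH minus WT PF. Filled symbols have an adjusted p of 0.05 or less; Ugt8a, listed at 0 in every WT PF mouse, is not drawn on the right.

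In WT mice, 1 of the 35 members was a DEG between the diets and was lower with EtOH, against 0.0796% of all genes tested (0.0724% lower and 0.00724% higher). This was Ugt2a3, which had 98.5, 73.6, 88.2 and 13.4 CPM in WT PF and 0.537, 0.945 and 0.840 CPM in WT EtOH mice. Each WT EtOH mouse was far below the lowest WT PF mouse. The log2 fold change was -6.45 (SE 0.93, adjusted p = 0.0282). The call was lost, at an adjusted p of 0.0506, without the 3 libraries high in large intestine markers (WT EtOH replicate 2 among them), when no member and 0.189% of all genes were DEGs, while the log2 fold change was then -6.60. Left out singly, WT PF replicates 1, 2 or 3, any WT EtOH mouse, fat-1 PF replicate 4 or fat-1 EtOH replicate 1 also ended the call, at adjusted p-values from 0.0609 to 0.417 and log2 fold changes from -6.60 to -6.21.

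In 7 members every WT EtOH mouse lay below every WT PF mouse, against 12.1% of all genes, and in 3 every mouse lay above, against 12.2%. Sult1b1 had 497, 543, 514.5 and 305 CPM in WT PF and 178.5, 248 and 212 CPM in WT EtOH mice. The groups were apart, and the log2 fold change was -1.13 (SE 0.25, adjusted p = 0.115). Sult2b1 had 229, 287, 283 and 245 CPM in WT PF and 181, 189.7 and 165.5 CPM in WT EtOH mice, a log2 fold change of -0.55 (SE 0.53, adjusted p = 0.675). Gstp1 had a log2 fold change of -0.40 (SE 0.15, adjusted p = 0.253). Sult6b2 had 1.64, 1.02, 11.8 and 0.104 CPM in WT PF and 0, 0.315 and 0.0840 CPM in WT EtOH mice, a ratio of 29.2 in scaled counts (exact 95% interval 11.1 to 109, counting error only). Of the 131 WT PF counts, 106 came from replicate 3, without which the ratio was 7.38 (2.55 to 29.2). The same library had 14.8 CPM of the acinar gene Ctrb1, 2.78 of Prss2 and 1.78 of Cpa1, against at most 0.437, 0.328 and 0.104 CPM in the other WT PF mice, and the part of this in its Sult6b2 value was not tested. The groups of Sult6b2 overlapped and the adjusted p was 0.361. The median log2 fold change of the 35 members was -0.246 in WT mice, against 0.012 over all genes. DESeq2 called Ugt2a3 and Sult1b1, against 1.86% of all genes, and limma voom called these and Gsto1 and Gstp1, against 20.3% of all genes.

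The interaction term, the EtOH response of fat-1 mice minus that of WT mice, asks if both genotypes responded alike. None of the 35 members passed in edgeR's test, and none of the 13811 genes did (0%). DESeq2 and limma voom called none either, and none of all genes (0%). At an unadjusted p under 0.05, 4 members differed, against 8.26% of all genes: Gsta1 at -2.02 (SE 0.71, unadjusted p = 0.0125), Gstt1 at -1.28 (SE 0.55), Sult1b1 at -0.71 (SE 0.33) and Gstm6 at -2.08 (SE 0.97), all with an adjusted p of 0.595. The 21 calls in fat-1 mice and the 1 call in WT mice therefore do not show a different response, and WT EtOH mice were only 3.

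On the PF diet, none of the 35 members was a DEG between the genotypes in edgeR's test and none of all genes was (0%), with a smallest adjusted p of 0.187 among the members. At an unadjusted p under 0.05, 16 members differed, against 12.7% of all genes: 14 Gst and 2 Sult genes, each with a higher mean in fat-1 PF mice. The log2 fold change was positive in 31 of the 35 members, with a median of 0.491 against 0.016 over all genes. The values came with a difference in the proximal small intestine markers, which summed to between 3602 and 18650 CPM in WT PF and between 13370 and 58840 CPM in fat-1 PF mice.

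Sult6b2 had the smallest unadjusted p, with the WT PF and fat-1 PF values given above and a log2 fold change of 5.35 (SE 1.24, unadjusted p = 0.000651, adjusted p = 0.187). The groups overlapped because of fat-1 PF replicate 3. Gstt1, a theta-class enzyme, had 24.5, 23.5, 16.9 and 15.3 CPM in WT PF and 27.6, 114, 27.1 and 74.1 CPM in fat-1 PF mice, with a log2 fold change of 1.598 (SE 0.39, adjusted p = 0.187). Every fat-1 PF mouse lay above every WT PF mouse in Gstt1, Gstm7, Gsto1, Gstt2 and Gstk1, 5 of the 35 members against 4.25% of all genes, and in no member did every mouse lie below (2.62%). Gsta1 had 12.5, 9.96, 10.9 and 3.85 CPM in WT PF mice, against the 9.29 to 55.6 CPM given above for fat-1 PF mice, with a log2 fold change of 1.97 (SE 0.50, adjusted p = 0.187). Gstm6 had 10.8, 8.15, 5.78 and 2.60 CPM in WT PF mice and a log2 fold change of 2.55 (SE 0.66, adjusted p = 0.187).

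In 14 of the 16 members with an unadjusted p under 0.05, that is Sult1b1, Sult6b2 and 12 Gst genes, the 2 highest of all 16 libraries were fat-1 PF replicates 2 and 4. This held for 48.9% of all genes with such a p, and for 15 of the 35 members against 12.1% of all genes tested. Without replicates 2 and 4, 1 of 36 members had an unadjusted p under 0.05, against 3.02% of all genes, and the median log2 fold change of the members was 0.170 against 0.004 over all genes. DESeq2 called Gstt1 and Sult6b2 with all libraries, against 1.37% of all genes, and limma voom called none, against 0.224%. DESeq2 gave no adjusted p for 14 of the 35 members here, Gsta1, Gstm6 and Gstm7 among them, so that its count covers the other 21. In edgeR's test 4 members passed without fat-1 PF replicate 3: Sult6b2, Gsta1, Gstt1 and Gstm6, at adjusted p-values of 0.0247, 0.0336, 0.0385 and 0.0410, against 0.826% of all genes. Gstt1 also passed without fat-1 PF replicate 1, at an adjusted p of 0.0498, against 0.711% of all genes. This comparison and that of fat-1 EtOH with fat-1 PF mice share the fat-1 PF libraries. The values of Sult6b2 (5.35 and -12.3), Gstm6 (2.55 and -3.63), Gsta1 (1.97 and -2.78) and Gstm7 (2.00 and -1.81), are given side by side for that reason and are not 2 separate results.

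On the EtOH diet, none of the 35 members was a DEG between the genotypes in edgeR's test, against 0.00724% of all genes, and none had an unadjusted p under 0.05, against 4.86%. DESeq2 and limma voom called none of the members, against 0.0362% and 0.00724% of all genes. The smallest unadjusted p was that of Ugt1a6a, which had 3.85, 4.83 and 5.71 CPM in WT EtOH and 3.90, 6.46, 19.5, 18.6 and 4.45 CPM in fat-1 EtOH mice. Replicates 3 and 4 of the latter lay far above the WT mice, replicate 2 lay just above them and replicates 1 and 5 lay within their range, and the log2 fold change was 1.14 (SE 0.54, unadjusted p = 0.0517). The median log2 fold change of the members was 0.322 with all libraries and -0.065 without the 3 EtOH libraries high in large intestine markers, so that its sign rested on these. No member had groups that did not overlap (2.45% of all genes).

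Conjugation depends on other genes, which were followed in 5 lists, and the same 37.4% of all genes is the background for these counts between fat-1 EtOH and fat-1 PF mice. Of 16 genes that supply cofactors, 1 was higher (Cbs) and 2 were lower (Bpnt1 and Gclm). Without the 3 libraries high in large intestine markers, 1 was higher (Slc7a11) and 6 were lower (Bpnt1, Gclm, Ggt1, Papss2, Ugdh and Ugp2), against the 29.7% given above. Bpnt1, which removes the PAP left by sulfotransferases, had 421, 846, 341 and 703 CPM in fat-1 PF and 151.5, 156, 108, 104.5 and 119.8 CPM in fat-1 EtOH mice. All fat-1 EtOH mice were low, with a log2 fold change of -2.17 (SE 0.27, adjusted p = 0.000248). Cbs, an enzyme of cysteine synthesis, had a log2 fold change of 5.35 (SE 1.42, adjusted p = 0.00990) that rested on replicates 3 and 4, with 91.4 and 75.9 CPM against at most 2.76 CPM in the other 3 mice. Without the 3 libraries high in large intestine markers the adjusted p of Cbs was 0.0542. Among other conjugating enzymes, Nat2, an N-acetyltransferase, fell by 1.03 on the log2 scale (SE 0.12, adjusted p = 0.000237). Of a list of 5 hydrolases, 4 were tested (Gusb, Arsa, Arsb and Dpep1) and Sts was not. The arylsulfatase genes Arsb and Arsa had log2 fold changes of 0.84 and -0.37 (adjusted p = 0.0232 and 0.0248). Whether their enzymes act on products of the members was not tested. Arsb was highest in fat-1 EtOH replicates 3 and 4, at 30.8 and 28.1 CPM, and without the 3 libraries its log2 fold change was 0.36 (adjusted p = 0.185), while that of Arsa was -0.46 (adjusted p = 0.0134). Of 27 alternatives, 10 ended the call of Arsb and 9 that of Arsa.

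Of 7 genes for export of conjugates, 2 were higher (Abcc1 and Abcc4) and none lower. Without the 3 libraries high in large intestine markers, Abcc1 was higher, Abcc2 was lower (log2 fold change -1.05, adjusted p = 0.0424) and Abcc4 did not pass (adjusted p = 0.0694). Abcc4 averaged 3.805 CPM in fat-1 PF mice and 5.795 CPM in fat-1 EtOH mice, or 5.76 CPM without the 3 libraries. Its mean thus hardly moved although the call was lost. Abcc1 had a log2 fold change of 1.26 (SE 0.31, adjusted p = 0.00684) with all libraries and 0.68 (adjusted p = 0.0349) without the 3 high in large intestine markers. Of 12 regulators, 1 was higher (Nr1h4) and 4 were lower (Gata4, Nfe2l2, Nr1i2 and Nr1i3). Gata4, a transcription factor of the proximal small intestine, had 75.2, 156, 59.9 and 143 CPM in fat-1 PF and 0.570, 1.11, 0, 0.0892 and 1.03 CPM in fat-1 EtOH mice. It was near 0 in all EtOH-fed mice, and its log2 fold change was -7.57 (SE 0.61, adjusted p = 5.93e-05). In WT mice, where Gata4 had 86.9, 87.8, 55.6 and 25.6 CPM on the PF and 0.448, 0.525 and 0.168 CPM on the EtOH diet, the log2 fold change was -7.39 (SE 0.80, adjusted p = 0.00270), and it was the only gene of the 5 lists that was a DEG in WT mice. This call was lost without WT EtOH replicate 1 or replicate 3, at adjusted p-values of 0.0624 and 0.0626 and log2 fold changes of -7.54 and -7.01. The xenobiotic receptor genes Nr1i3 (CAR) and Nr1i2 (PXR), which are known to induce conjugating enzymes, had log2 fold changes of -5.86 (SE 0.71, adjusted p = 0.000247) and -0.93 (SE 0.17, adjusted p = 0.00108) in fat-1 mice. Nr1h4 (FXR), the bile acid receptor, had 1.16 (SE 0.44, adjusted p = 0.0496), a call that was lost in 21 of 27 alternatives. Gata4 is also on the list of proximal small intestine markers, so that its values and that list are not independent.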

How the data were processed

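Raw counts of reads per Ensembl gene, not normalized, were deposited. According to the study's methods, the authors aligned paired 75-base reads of stranded poly(A) libraries to mm10 with tophat2 2.0.13 guided by Ensembl 82. The name of the deposited table gives htseq as the counter; its settings, strand included, are not given in the sources used here. Symbols, exons and positions came from GENCODE M21 (GRCm38), and 21939 of 21965 IDs had a symbol. With R 4.3.3, edgeR 4.0.16 (filterByExpr, TMM, robust quasi-likelihood fit with 1 mean per group over all 16 libraries, Benjamini-Hochberg adjustment at 0.05) was run on all genes, after a test on simulated data. Alternatives used DESeq2 1.42.0, limma 3.58.1 voom, other scalings and filters, and libraries left out. Tables and figures were made with python 3.11.15 and matplotlib 3.10.9. Mice were taken as replicates as labelled. CPM per kb used exon bases not shared with another gene, which assumes that reads in shared exons were not counted. Depth is the total count per library.

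The members and lists were chosen with earlier results of these data known. The genes named are every member called outside fat-1 EtOH vs fat-1 PF, up to 4 members per family and direction called there whose mice do not overlap, the 2 highest levels per kb in each family, the smallest p of each comparison, members with shared reads, and per list the extreme called genes in fat-1 mice and those called in WT mice. Others are named after their values were seen. The study's own cuffdiff2 results were not used. The count for the list of other conjugating enzymes is not reported here.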

Additional observations from a re-analysis of the deposited data

Results flagged for a closer look

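In the named members, 39 groups of 4 or 5 mice were searched for a single mouse far from the rest by Dixon's ratio, and 3 were found where chance gives about 1 in 20. The last given was bound to be found, which leaves 2 of 38 groups. Sult1d1 was 178.8 CPM in fat-1 PF replicate 4, against 308 to 318 CPM in the other 3 mice. Sult6b2 was 11.77 CPM in WT PF replicate 3, against 0.104 to 1.64 CPM in the others. The 4 pancreas acinar markers summed to 30.1 CPM in that library and to at most 8.52 CPM in the other WT PF mice, and their part in the value was not tested. Sult6b2 was 0.09502 CPM, a single count, in fat-1 EtOH replicate 1, against 0 in the other 4. With 4 values at 0 any count gives the highest possible ratio, so that nothing is read from it.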

How the results depend on the processing

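For fat-1 EtOH against fat-1 PF, the count of 21 DEGs (37.4% of all genes) fell to 13 with only the 2 groups in the fit (22.4% of all genes), to 6 without fat-1 PF replicates 2 and 4 (13.9%), and to 13 without those and the 3 EtOH libraries high in large intestine markers (11.9%), an alternative chosen after seeing the data. Leaving out 1 mouse gave 13 to 21 (28.5% to 39.4%), the lowest without fat-1 PF replicate 2 (28.5%), which ended the calls of Gstm3, Gstp2, Gstt2, Gstt3, Gstz1, Sult2b1, Ugt2b34 and Ugt8a. DESeq2 called 21 (40.2%), limma voom 17 (26.4%, no member higher), size factors 21 (37.4%), upper-quartile scaling 17 (41.0%), no filter 20 (27.7%) and at least 10 counts in every mouse 14 (38.7%). For WT EtOH against WT PF, the count of 1 (0.0796%) became 2 with DESeq2 (1.86%), 4 with voom (20.3%), 4 with only the 2 groups (7.79%), 0 with no filter (0.0112%), 0 with at least 10 counts in every mouse (0%, Ugt2a3 not tested), 0 without the 3 libraries (0.189%) and 2 without all 5 (3.41%). Leaving out 1 mouse gave 0 to 2 (0% to 0.479%, both highest without WT PF replicate 4). For fat-1 PF against WT PF, the count of 0 became 2 with DESeq2 (1.37%), and 0 to 4 on leaving out 1 mouse (0% to 0.826%). For fat-1 EtOH against WT EtOH it stayed at 0 under the 27 alternatives (0% to 0.0362%), and for the interaction under the 26 that could be fitted (0%), since a fit to only 2 groups has no interaction. The cause of these shifts was not tested.

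With the replicate number as a block, the counts were 16 in fat-1 mice (34.4% of all genes), 1 in WT mice (0.13%) and 0 in the other comparisons. The numbers are not stated to pair the mice. Deviations from the group mean had a mean correlation of -0.0225 over 21 pairs with the same number (-0.252 to 0.187) and 0.00703 over 74 other pairs. Marker differences between libraries of a group enter these correlations, so they cannot exclude a pairing. Of 54 results on single genes, none turned its direction under any alternative run. Their values kept their side of the threshold in 1270 cases, lost it in 152 and gained it in 13. The signs of up to 6 of the 35 members in a comparison changed under another scaling or tool, none of them DEGs. Members under about 1 CPM rest on few counts, and the WT EtOH group had 3 mice. The count ratios of Sult6b2 without 1 mouse were also chosen after seeing the data.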
